A study of Arabidopsis thaliana with 6 samples.

Results

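The JAZ repressors were followed through the *fio1* mutants as 8 Arabidopsis genes, *JAZ1* (AT1G19180), *JAZ2* (AT1G74950), *JAZ3* (AT3G17860), *JAZ5* (AT1G17380), *JAZ6* (AT1G72450), *JAZ9* (AT1G70700), *JAZ10* (AT5G13220) and *JAZ12* (AT5G20900). They were taken by locus identifier from the 33314 genes with an entry in the deposited tables, and hold 25 of the 56591 isoforms listed. Total RNA of pooled seedlings grown for 14 days on plates under long days was sequenced directly as RNA on the Nanopore platform, with 1 library each of *fio1-1*, *fio1-5* and the Col-0 wild type. *FIO1* encodes an RNA methyltransferase that deposits N6-methyladenosine. The *fio1-1* allele carries a point mutation from chemical mutagenesis that alters splicing of *FIO1*, the *fio1-5* allele carries a deletion made with CRISPR, and both are in the Col-0 background. Since both alleles alter the transcript, the counts of *FIO1* itself (17 in *fio1-1*, 30 in *fio1-5*, against 25 in Col-0) do not check the labels. With 1 library per genotype no difference has a replicate check and no p-value is given. Every interval is a 95% interval that covers counting error only.

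JAZ proteins hold back the jasmonate response. They bind MYC transcription factors and, through the adaptor NINJA, recruit corepressors of the TOPLESS family. When the hormone jasmonoyl-isoleucine accumulates, the F-box protein COI1 binds the Jas motif of a JAZ protein and marks it for degradation, which frees the MYC factors. In most *JAZ* genes the code for the Jas motif is split by an intron, and a transcript that keeps this intron can encode a shortened repressor that is bound less well by COI1. FIO1 also methylates the U6 small nuclear RNA, which pairs with the start of an intron during splicing, so the start of the last coding intron is shown here for the members whose isoform counts are described. The sequences were read from the RefSeq annotation of TAIR10.1 by isoform identifier, 5′ to 3′ on the coding strand, with the last 10 bases of the exon in lower case and the first 6 bases of the intron in capitals.
*JAZ12*, last coding intron of isoform AT5G20900.1: gacgggacagGTATGCagcctttaa
*JAZ6*, last coding intron of isoform AT1G72450.1: gaaaagacagGTAAACtaaactccg
*JAZ2*, last coding intron of isoform AT1G74950.1: ggaaggatagGTAATGcattttaat
*JAZ9*, last coding intron of isoform AT1G70700.1: gcaaagagagGTTTGAttttgtatt

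These 4 sequences lie at chr5:7091895-7091919 on the plus strand (*JAZ12*), chr1:27275050-27275074 on the minus strand (*JAZ6*), chr1:28149084-28149108 on the minus strand (*JAZ2*) and chr1:26656619-26656643 on the plus strand (*JAZ9*) of TAIR10.1. The introns themselves are 200 bases long in *JAZ12*, 524 in *JAZ6*, 92 in *JAZ2* and 82 in *JAZ9*. The 6 capital letters of the *JAZ12* intron start (GTATGC) also start 1.19% of the 136202 annotated introns. Those of *JAZ6* (GTAAAC) start 1.48%, those of *JAZ2* (GTAATG, shared with *JAZ10*) 1.42% and those of *JAZ9* (GTTTGA) 0.642%. All 25 isoforms of the 8 genes in the tables have an entry with the same identifier in RefSeq, and no unannotated isoform was listed for any of them.

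The 3 libraries had estimated count totals of 4351738 (*fio1-1*), 4683006 (*fio1-5*) and 4603063 (Col-0). A floor of 3 counts corresponds to 0.698 CPM (counts per 1000000 of the library total after TMM scaling) in *fio1-1* and 0.648 CPM in *fio1-5*, against 0.637 CPM in Col-0. Leaf markers were abundant in every library, and of the 2 flower markers *AG* had 0 counts in all 3 and *AP3* had 2 counts in *fio1-5* and 0 in the others. Markers differed between genotypes. The leaf markers summed to 51074 CPM in *fio1-1* and 59571 CPM in *fio1-5*, against 63007 CPM in Col-0, with *CAB1* lower and *RBCS1A* higher in both mutants. All 3 root markers (*EXPA7*, *COBL9*, *PYK10*) were higher in both mutants, with summed levels of 4324 CPM in *fio1-1* and 2780 CPM in *fio1-5*, against 1560 CPM in Col-0. All 3 seed storage protein genes checked were higher in both mutants too, with summed levels of 913 CPM in *fio1-1* and 584 CPM in *fio1-5*, against 270.2 CPM in Col-0. In *fio1-5*, the intervals of the root marker *COBL9* (log2 ratio 0.68, -0.115 to 1.53) and the seed gene *CRA1* (0.585, -0.1195 to 1.325) included 0. *PYK10* supplied most of the root sum. The part of these markers in the differences described here was not tested. In whole seedlings, fewer cells of a type and less RNA per cell cannot be told apart.

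*JAZ12* and *JAZ6* accounted for nearly all *JAZ* transcripts in these seedlings, and *JAZ12* was less abundant in both mutants and *JAZ6* in *fio1-1*. The 8 genes summed to 938 counts in *fio1-1* and 994 counts in *fio1-5*, against 1251 counts in Col-0. *JAZ12* alone made up 85.4% of this sum in *fio1-1* (exact Clopper-Pearson interval 83.0 to 87.6%) and 81.7% in *fio1-5* (79.1 to 84.0%), against 82.3% in Col-0 (80.1 to 84.4%). *JAZ6* made up 13.3% in *fio1-1* (11.2 to 15.7%) and 16.7% in *fio1-5* (14.4 to 19.2%), against 15.9% in Col-0 (13.9 to 18.1%). The other 6 genes together had 12 counts in *fio1-1* and 16 in *fio1-5*, against 22 in Col-0. For the 8 genes summed, the log2 ratio of scaled counts was -0.28 in *fio1-1* (interval -0.41 to -0.16) and -0.31 in *fio1-5* (-0.43 to -0.19), both relative to the same Col-0 library. This sum mainly follows *JAZ12*. Without *JAZ12*, the 7 remaining genes stood at a ratio of -0.56 on the log2 scale in *fio1-1*, with an interval from -0.88 to -0.24, while in *fio1-5* the value was -0.25 (-0.55 to 0.03).

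**Figure D1:**
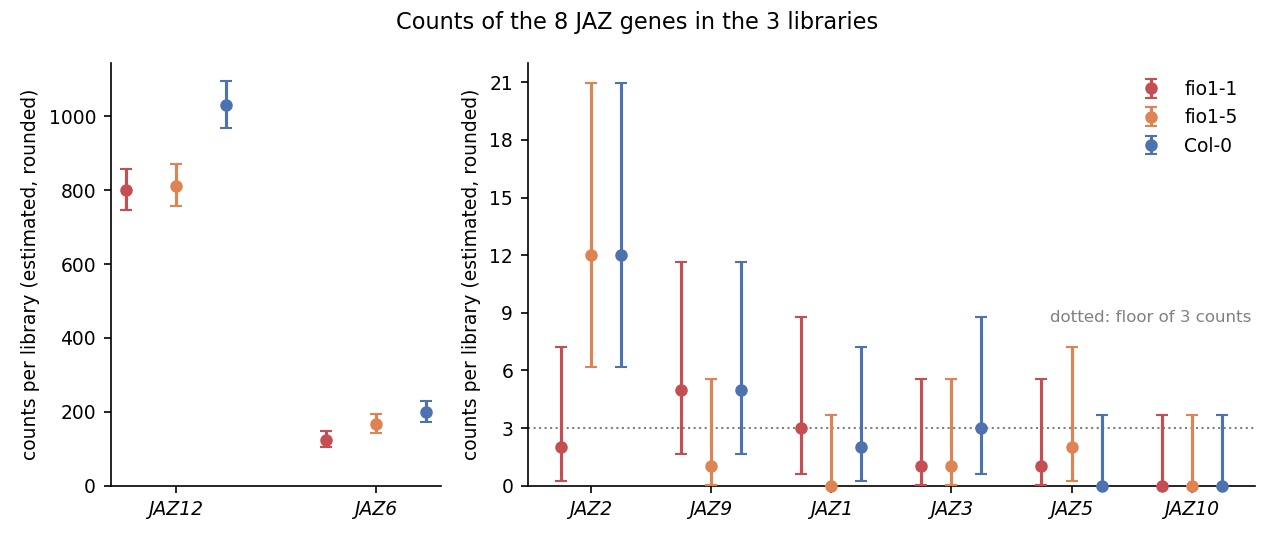
Estimated counts per library (vertical axis, rounded) of the 8 *JAZ* genes in *fio1-1*, *fio1-5* and Col-0, with exact Poisson intervals as bars and the more abundant *JAZ12* and *JAZ6* on an axis of their own. *JAZ12* reached 801 counts in *fio1-1* and 812 in *fio1-5*, against 1030 in Col-0, while *JAZ10* had 0 in all 3 and no other gene on the right exceeded 12.

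*JAZ12* encodes a JAZ repressor that is also a partner of the ubiquitin ligase KEEP ON GOING, and lies at chr5:7090704-7092539 (plus strand, TAIR10.1). It had 801 counts in *fio1-1* (Poisson interval 747 to 858) and 812 counts in *fio1-5* (757 to 870), against 1030 counts in Col-0 (968 to 1095). The mutant intervals did not overlap that of Col-0. In TPM, counts scaled to transcript length and to 1000000 per library, *JAZ12* stood at 141 TPM in *fio1-1* and 132 TPM in *fio1-5*, against 184 TPM in Col-0. Its rank by TPM was 1082 of 21457 genes with a value above 0 in *fio1-1* and 1079 of 21483 in *fio1-5*, against 846 of 21223 in Col-0. The log2 ratio of scaled counts was -0.23 in *fio1-1* (interval -0.37 to -0.10) and -0.32 in *fio1-5* (-0.45 to -0.18). Between the alleles the log2 ratio of *fio1-5* over *fio1-1* was -0.09 (-0.23 to 0.06). The difference from Col-0 exceeded counting error in each mutant, whereas the interval between the alleles included 0. The last 28 bases of *JAZ12* overlap *AIP2* (AT5G20910), which lies on the opposite strand and had 112 counts in *fio1-1* and 112 in *fio1-5*, against 93 in Col-0. The handling of strand in the counting is not stated, so reads of the overlap are uncertain. A second opposite-strand locus, AT5G03235, covers the last coding intron of *JAZ12* and had 0 counts in all libraries.

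*JAZ6* encodes a close relative of JAZ5 and lies at chr1:27273968-27276562 (minus strand). It had 125 counts in *fio1-1* (104 to 149) and 166 counts in *fio1-5* (142 to 193), against 199 counts in Col-0 (172 to 229). The counts of *fio1-1* fell outside the interval of Col-0, and those of *fio1-5* lay between the others with an overlapping interval. In TPM, *JAZ6* stood at 13.6 in *fio1-1* and 16.5 in *fio1-5*, against 21.7 in Col-0, which is 10.4-fold below *JAZ12* in *fio1-1* and 8.0-fold in *fio1-5*, against 8.46-fold in Col-0. The log2 ratio of scaled counts was -0.54 (-0.87 to -0.21) for *fio1-1* and -0.24 (-0.54 to 0.07) for *fio1-5*. The difference of *fio1-5* from Col-0 was thus within counting error, and so was that between *fio1-5* and *fio1-1*, with a log2 ratio of 0.30 (-0.04 to 0.65). Within the 8 genes, the share of *JAZ6* was 2.58 percentage points lower in *fio1-1* than in Col-0 (Newcombe interval -5.52 to 0.44), an interval that includes 0. Between the alleles, the share of *JAZ6* was 3.37 points higher in *fio1-5* than in *fio1-1* (0.18 to 6.55) and that of *JAZ12* differed by -3.70 points (-7.00 to -0.39), so these shares differed beyond counting error. Since *JAZ12* and *JAZ6* hold nearly all counts of the 8 genes, these differences mirror each other. The interval of each gene's own log2 ratio between the alleles included 0.

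*JAZ2* encodes a JAZ repressor known for its role in stomatal guard cells and lies at chr1:28148574-28150446 (minus strand). It had 2 counts in *fio1-1* (0.24 to 7.2) and 12 counts in *fio1-5* (6.2 to 21), against 12 counts in Col-0 (6.2 to 21). The count of *fio1-5* equalled that of Col-0, and *fio1-1* was below both. The ratio of *fio1-1* to Col-0 was 0.182 with a counting interval from 0.0198 to 0.820, a log2 ratio of -2.21. The log2 ratio of *fio1-5* over *fio1-1* was 2.23 (0.31 to 5.68). These values rest on 2 counts in 1 library, and on the deposited TPM with 0.5 added the log2 ratio of *fio1-1* over Col-0 was -1.47, while that of *fio1-5* over *fio1-1* was 1.36.

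The remaining members were at or near the floor. *JAZ9*, a relative of *JAZ3*, had 5 counts in *fio1-1* and 1 in *fio1-5*, against 5 in Col-0. *JAZ1*, a gene that jasmonate itself induces quickly, had 3 counts in *fio1-1* and 0 in *fio1-5*, against 2 in Col-0. *JAZ3*, found through a dominant jasmonate-insensitive mutant, had 1 count in *fio1-1* and 1 in *fio1-5*, against 3 in Col-0. *JAZ5* had 1 count in *fio1-1* and 2 in *fio1-5*, against 0 in Col-0. *JAZ10*, which in wounded leaves is strongly induced and forms several splice variants, had 0 counts for each of its 7 listed isoforms in every library, which allows a level of up to 0.698 CPM in *fio1-1* and 0.648 CPM in *fio1-5*, against 0.637 CPM in Col-0. For these 5 genes no difference between genotypes was detectable at this depth. By TPM, *JAZ12* came before *JAZ6* in every library. In Col-0 these were followed by *JAZ2*, *JAZ9*, *JAZ3* and *JAZ1*, with *JAZ5* and *JAZ10* at 0. The count intervals of *JAZ12*, *JAZ6* and *JAZ2* did not overlap in any library, while in Col-0 those of *JAZ2* and *JAZ9* did, as did those of each later pair of neighbours.

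Sequence shared between paralogs was limited. Of all stretches of 21 bases in the transcripts of *JAZ12*, *JAZ6*, *JAZ5* and *JAZ10*, 0% occurred in another gene's transcripts, and the share was highest in *JAZ9* with 0.375%. No near-identical copy of a member that could take a large part of its reads was found.

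Set beside all genes, *JAZ12* and *JAZ6* stayed under 2-fold in every comparison, and *JAZ2* passed it in those with *fio1-1*. Of the 8 genes, 3 (*JAZ12*, *JAZ6* and *JAZ2*) had at least 20 counts over the 3 libraries, the minimum for a log2 ratio, as did 16426 of all genes. In *fio1-1*, 1 of these 3 (*JAZ2*) was at least 2-fold lower than in Col-0, and none was 2-fold higher. Over all tested genes 4.29% were at least 2-fold lower and 13.8% at least 2-fold apart in either direction. In *fio1-5*, 0 of the 3 were 2-fold apart from Col-0, and 11.7% of all tested genes were. Between *fio1-5* and *fio1-1*, 1 of the 3 (*JAZ2*) was at least 2-fold apart, higher in *fio1-5*, as were 8.21% of all tested genes (3.26% higher and 4.96% lower in *fio1-5*). With 2 counts in *fio1-1*, *JAZ2* passed the minimum of 20 only through *fio1-5* and Col-0. Both calls of *JAZ2* were in part set by that selection. The median log2 ratio of the 3 genes was -0.54 in *fio1-1* and -0.24 in *fio1-5*, while that of all tested genes was -0.01 in *fio1-1* and 0.01 in *fio1-5*. With 3 genes, nothing particular to the family can be read from these shares.

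Isoform usage was compared next, since the last coding intron of 6 members is kept in at least 1 annotated isoform. These are *JAZ1*, *JAZ2*, *JAZ5*, *JAZ6*, *JAZ9* and *JAZ10*. *JAZ12* has 1 annotated isoform, in which the intron is spliced, so a *JAZ12* transcript that keeps its intron has no entry of its own. All 4 isoforms of *JAZ3* splice it as well and differ near their 5′ ends. In *JAZ1* the intron lies early in the coding part, and the gene is not among those with an intron in the Jas motif.

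*JAZ6* was the only member with enough counts (at least 20 in both libraries) and 2 counted isoforms. AT1G72450.1, from which all introns are removed, held nearly all counts. AT1G72450.2, which keeps the 524-base intron and has a coding length of 609 instead of 810 bases, had 0 of 125 counts in *fio1-1* and 5 of 166 in *fio1-5*, against 4 of 199 in Col-0. By the floor of 3 counts, 0 of 125 allows a share of up to 2.40% in *fio1-1*, and the upper exact limit is 2.91%. The share was 3.01% in *fio1-5* (exact Clopper-Pearson interval 0.985 to 6.89%), against 2.01% in Col-0 (0.550 to 5.07%). The share of the intron-keeping isoform differed from Col-0 by -2.01 percentage points in *fio1-1* (Newcombe interval -5.05 to 1.21) and by 1.00 points in *fio1-5* (-2.49 to 5.04), and between *fio1-5* and *fio1-1* by 3.01 points (-0.43 to 6.86). All 3 intervals include 0, so a shift was not detectable at this depth. The intron-keeping isoform, at 2.01% in Col-0, could not fall by 10 points from there, and the shares of the 2 isoforms mirror each other. Neither isoform of *JAZ6* shifted by at least 10 points. Among all isoforms tested, 14.7% did so in *fio1-1* and 14.4% in *fio1-5*, each set against Col-0, and 11.7% did so when *fio1-5* was set against *fio1-1*. With at least 100 gene counts in both libraries, as *JAZ6* had, the isoforms that did so were 134 of 2595 in *fio1-1* and 105 of 2673 in *fio1-5* against Col-0, and 78 of 2590 from *fio1-5* to *fio1-1*.

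*JAZ2* showed the opposite makeup in the wild type, with most counts assigned to the isoform that keeps the intron. AT1G74950.2, with a coding length of 666 bases against 750 for the fully spliced AT1G74950.1, had 2 of 2 counts in *fio1-1* and 10 of 12 in *fio1-5*, against 10 of 12 in Col-0. Its share was 83.3% in *fio1-5* and 83.3% in Col-0, each with an interval from 51.6 to 97.9%, and the 2 counts of *fio1-1* do not set a share. In *JAZ9*, the intron-keeping AT1G70700.3 had 2 of 5 counts in *fio1-1* and 1 of 1 in *fio1-5*, against 4 of 5 in Col-0. Its coding length is not shortened, with 831 bases against 804 for AT1G70700.1, which splices the intron. For *JAZ5*, the counted isoform was AT1G17380.2, which keeps the first intron and splices the last, with 1 count in *fio1-1* and 2 in *fio1-5*, against 0 in Col-0. In *JAZ3*, AT3G17860.1 had 1 count in *fio1-1* and 1 in *fio1-5*, against 2 in Col-0, and AT3G17860.4 had 0 in both mutants against 1 in Col-0. In *JAZ1*, AT1G19180.3 had 3 counts in *fio1-1* and 0 in *fio1-5*, against 1 in Col-0, and the intron-keeping AT1G19180.2 had 0 in both mutants against 1 in Col-0.

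**Figure D2:**
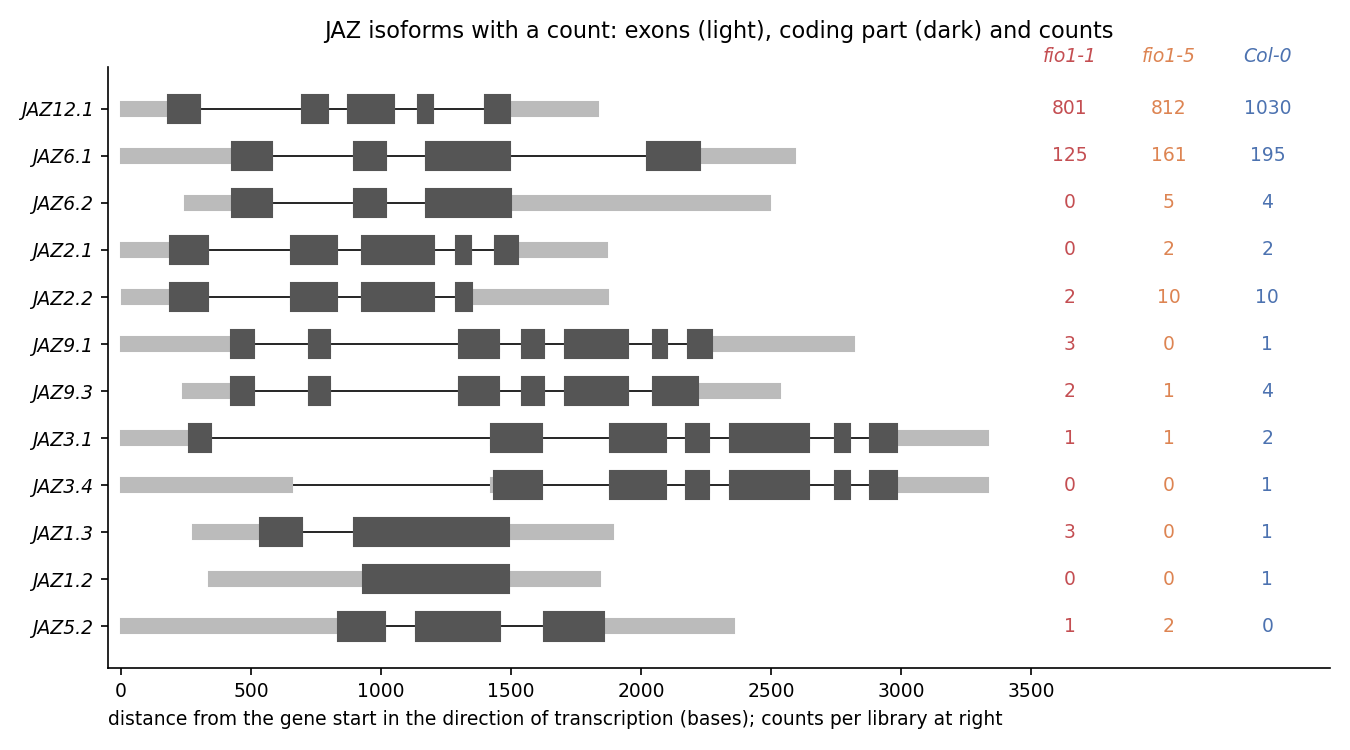
Exon structure of the 12 *JAZ* isoforms with a count, drawn to scale from the RefSeq models (horizontal axis, bases from the gene start, light exons and dark coding parts), with their counts in *fio1-1*, *fio1-5* and Col-0 at the right. The isoform of *JAZ6* that keeps its last coding intron had 0 counts in *fio1-1* and 5 in *fio1-5*, against 4 in Col-0, beside 125 or more of the spliced form in each library.

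Summed over the 6 genes that have an intron-keeping isoform, 4 of 136 counts kept the intron in *fio1-1* (2.94%, interval 0.807 to 7.36%) and 16 of 181 in *fio1-5* (8.84%, 5.14 to 14.0%), against 19 of 218 in Col-0 (8.72%, 5.33 to 13.3%). The 3 intervals overlapped, but overlap of separate intervals does not decide whether shares differ, and no interval of the differences was taken for these sums. The mix of genes differed between libraries, and the sums include *JAZ1*, which is not among the genes with an intron in the Jas motif. Of the intron-keeping counts, *JAZ2* supplied 2 in *fio1-1* and 10 in *fio1-5*, against 10 in Col-0, and *JAZ6* supplied 0 in *fio1-1* and 5 in *fio1-5*, against 4 in Col-0. *JAZ6* supplied most of the gene counts, and without it 4 of 11 counts kept the intron in *fio1-1* (36.4%, 10.9 to 69.2%) and 11 of 15 in *fio1-5* (73.3%, 44.9 to 92.2%), against 15 of 19 in Col-0 (79.0%, 54.4 to 94.0%), with intervals that again overlapped.

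The genes that act with the JAZ repressors were taken from lists of the hormone pathway and, with them, of 2 splicing factors known to promote removal of the intron in the Jas motif, 52 genes in all, of which 39 had at least 20 counts. In *fio1-1*, 4 of the 39 were at least 2-fold higher and 4 at least 2-fold lower than in Col-0 (1 of the lower genes, *PRP39A*, is a splicing factor), against 9.50% higher and 4.29% lower among all tested genes. In *fio1-5*, 2 were at least 2-fold higher and 3 lower, against 7.43% and 4.30% among all tested genes. The median log2 ratio of the 39 genes was -0.04 in *fio1-1* and -0.19 in *fio1-5*. Some of the called genes met the minimum of 20 only through libraries where they are high, as said below for each.

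Among the other members of the family, *JAZ11* was the best counted, with 84 counts in *fio1-1* and 84 in *fio1-5*, against 73 in Col-0. Its log2 ratios of 0.33 (-0.14 to 0.81) for *fio1-1* and 0.23 (-0.24 to 0.70) for *fio1-5* were within counting error. *JAZ7*, which lacks the intron in the Jas motif, had 18 counts in *fio1-1* and 7 in *fio1-5*, against 7 in Col-0, a log2 ratio of 1.43 in *fio1-1* (0.17 to 3.0). *JAZ7* passed the count minimum only through *fio1-1*, so its call as higher in *fio1-1* was in part set by that selection. *JAZ4*, *JAZ8* and *JAZ13* had at most 5 counts in any library.

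The receptor gene *COI1* was lower in both mutants beyond counting error. It had 108 counts in *fio1-1* and 122 in *fio1-5*, against 167 in Col-0, log2 ratios of -0.50 (-0.86 to -0.14) for *fio1-1* and -0.43 (-0.78 to -0.08) for *fio1-5*. None of the 5 genes of the co-receptor and ligase list was 2-fold apart from Col-0 in either mutant, beside 13.8% of all tested genes in *fio1-1* and 11.7% in *fio1-5*. The adaptor gene *NINJA* had 17 counts in *fio1-1* and 17 in *fio1-5*, against 16 in Col-0. The corepressor gene *TPL* had 14 counts in *fio1-1* and 3 in *fio1-5*, against 13 in Col-0. For *TPL* the ratio of *fio1-5* to Col-0 was 0.235, a log2 ratio of -1.92 with an interval from -4.54 to -0.23. In *fio1-5* it was the 1 corepressor gene of 6 that was 2-fold apart, beside 11.7% of all tested genes. Its 3 counts in *fio1-5* are at the floor of 3 counts in 1 library. *TPL* passed the minimum of 20 only through *fio1-1* and Col-0, so this call was in part set by that selection.

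The MYC factors are the targets of JAZ repression. *MYC2* had 0 counts in *fio1-1* and 1 in *fio1-5*, against 1 in Col-0, and was not measurable at this depth. *MYC3* was the best counted, with 181 counts in *fio1-1* and 206 in *fio1-5*, against 270 in Col-0, log2 ratios of -0.44 (-0.73 to -0.17) for *fio1-1* and -0.36 (-0.63 to -0.10) for *fio1-5*. *MYC4* had 97 counts in *fio1-1* and 81 in *fio1-5*, against 105 in Col-0, log2 ratios of 0.02 (-0.40 to 0.43) for *fio1-1* and -0.35 (-0.79 to 0.08) for *fio1-5*, within counting error. *JAM1*, a factor that competes with MYC2 at its targets, had 57 counts in *fio1-1* and 54 in *fio1-5*, against 123 in Col-0, and was at least 2-fold lower in *fio1-5* (log2 ratio -1.15, -1.65 to -0.69). In *fio1-1* its log2 ratio of -0.97 (-1.46 to -0.51) was just short of 2-fold.

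**Figure D3:**
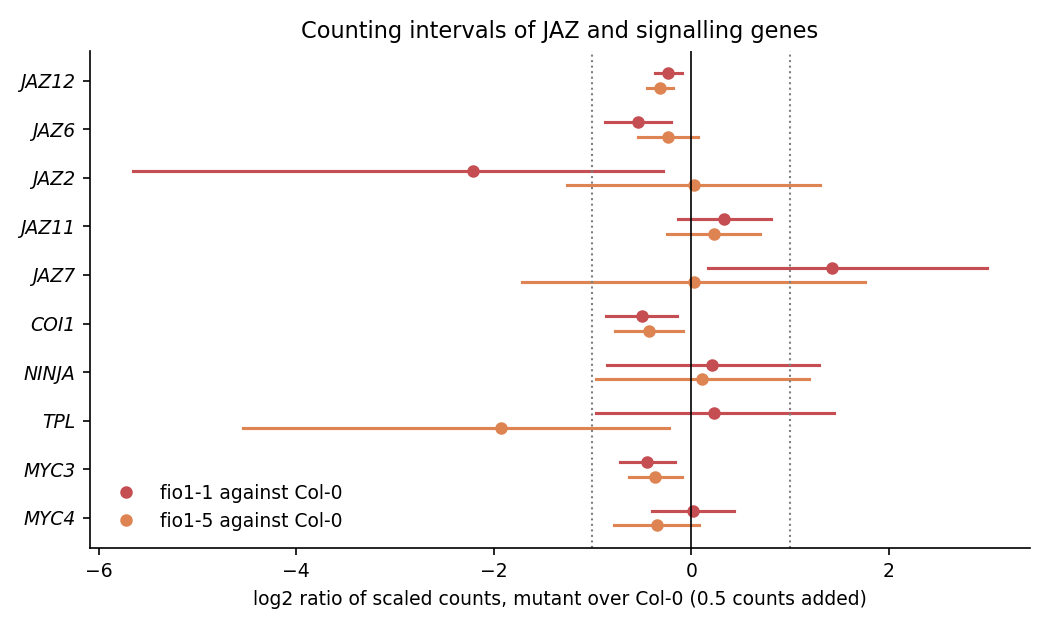
Log2 ratios of scaled counts over Col-0 (horizontal axis, 0.5 counts added) for *JAZ* and signalling genes in *fio1-1* and *fio1-5*, with exact conditional binomial intervals as lines and dotted lines at 2-fold. *JAZ12*, *COI1* and *MYC3* lay below 0 with their whole interval in both mutants, whereas *JAZ2* and *TPL* had the widest intervals on the lower side, *JAZ2* in *fio1-1* and *TPL* in *fio1-5*.

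In jasmonate synthesis, 2 of 8 genes with enough counts were at least 2-fold lower in *fio1-1* and none in *fio1-5*, beside 4.29% of all tested genes in *fio1-1* and 4.30% in *fio1-5*. *AOC2*, an allene oxide cyclase gene, had 251 counts in *fio1-1* and 419 in *fio1-5*, against 826 in Col-0, and *AOS*, which encodes the preceding enzyme, had 319 counts in *fio1-1* and 450 in *fio1-5*, against 799 in Col-0. In jasmonate turnover, 3 of 8 genes were at least 2-fold higher in *fio1-1* and 2 in *fio1-5*, with 1 lower in each, beside 9.50% of all tested genes higher in *fio1-1* and 7.43% in *fio1-5*. *CYP94B3*, whose product inactivates jasmonoyl-isoleucine by oxidation, had 41 counts in *fio1-1* and 32 in *fio1-5*, against 11 in Col-0, log2 ratios of 1.98 (1.04 to 3.14) for *fio1-1* and 1.52 (0.54 to 2.7) for *fio1-5*. AT3G11180 had 28 counts in *fio1-1* and 11 in *fio1-5*, against 5 in Col-0, log2 ratios of 2.50 (1.22 to 4.35) for *fio1-1* and 1.09 (-0.48 to 3.04) for *fio1-5*. The jasmonate-regulated *JRG21* (AT3G55970) went the other way, with 5 counts in *fio1-1* and 5 in *fio1-5*, against 18 in Col-0. *CYP94C1*, of the same enzyme family as *CYP94B3*, was 2-fold higher in *fio1-1* alone, with 20 counts in *fio1-1* and 6 in *fio1-5*, against 8 in Col-0. AT3G11180 and *CYP94C1* passed the minimum of 20 only through *fio1-1*, and *JRG21* only through Col-0. The calls of AT3G11180 and *CYP94C1* in *fio1-1*, and of *JRG21* in both mutants, were in part set by that selection. Of the 4 response genes, *VSP1* passed the minimum, with 7 counts in *fio1-1* and 10 in *fio1-5*, against 5 in Col-0. The intervals of its log2 ratios included 0 in *fio1-1* (-1.255 to 2.615) and in *fio1-5* (-0.658 to 2.924). Under the minimum, *VSP2* had 4 counts in *fio1-1* and 3 in *fio1-5*, against 6 in Col-0. *TAT3* had 1 and 2 against 7, and *PDF1.2* had 2 and 1 against 0, in the same order.

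The list of 2 splicing factors is counted within the 39 genes above, and 1 of its genes was at least 2-fold lower in *fio1-1*, beside 4.29% of all tested genes. *PRP39A* had 11 counts in *fio1-1* and 27 in *fio1-5*, against 45 in Col-0, log2 ratios of -1.86 (-3.0 to -0.93) for *fio1-1* and -0.70 (-1.46 to 0.01) for *fio1-5*. *PRP40A* had 9 counts in *fio1-1* and 10 in *fio1-5*, against 12 in Col-0, log2 ratios of -0.27 (-1.71 to 1.09) for *fio1-1* and -0.23 (-1.61 to 1.10) for *fio1-5*. The part of *PRP39A* in the isoform counts of *JAZ6* and *JAZ2* was not tested.

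**Figure D4:**
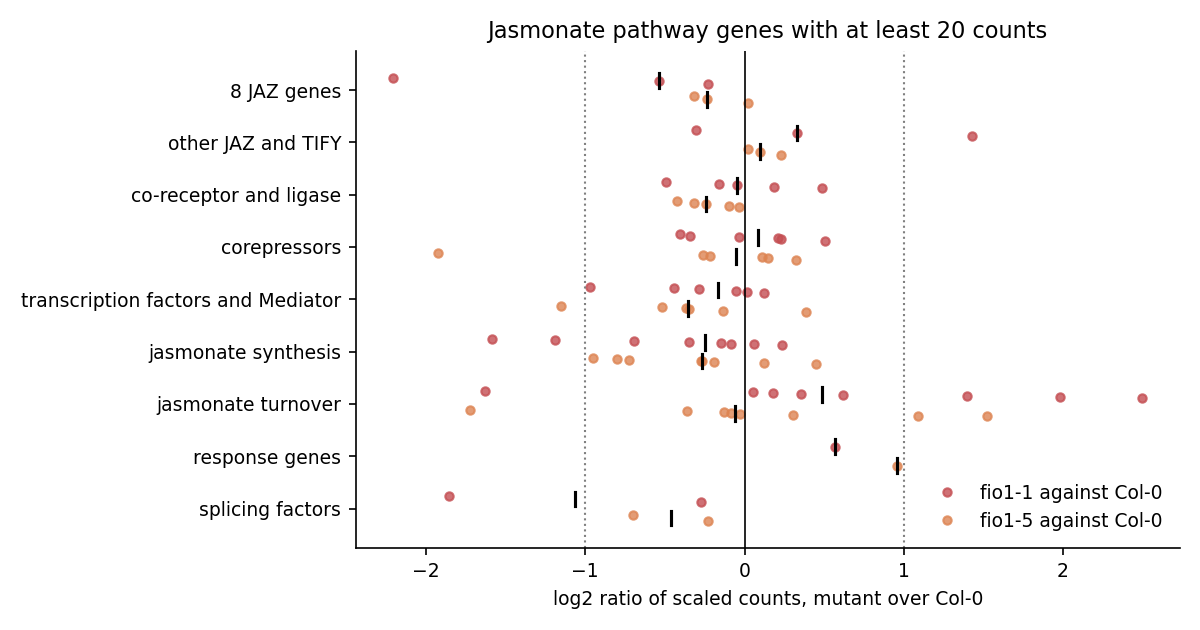
Log2 ratios of scaled counts over Col-0 (horizontal axis) for the 3 *JAZ* genes and the 39 pathway genes with at least 20 counts, by list (rows), with *fio1-1* above *fio1-5*, black ticks at the medians and dotted lines at 2-fold. The medians of the 3 *JAZ* genes were -0.54 in *fio1-1* and -0.24 in *fio1-5*, and the widest spread was in the turnover list.

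Genes with a like pattern over the genotypes were looked for last. Among the 10716 other genes with at least 100 counts, the 3 whose pair of log2 ratios lay nearest to that of the 8 summed *JAZ* genes were AT3G46490 (121 counts in *fio1-1* and 128 in *fio1-5*, against 161 in Col-0), AT5G16250 (517 in *fio1-1* and 548 in *fio1-5*, against 688 in Col-0) and AT5G62290 (112 in *fio1-1* and 119 in *fio1-5*, against 150 in Col-0). Likeness is the Euclidean distance between the pairs, over the 3 libraries, and 325 genes lay within 0.1 of the *JAZ* sum.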

How the data were processed

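Seedlings were 14 days old, and 1 Nanopore direct RNA library was made per genotype. Such reads start at the poly(A) tail and can stop short of the 5′ end, so introns near the 3′ end are covered best. According to the methods and the submitters' processing notes, reads were base called with Guppy, filtered with Nanofilt, corrected with Fclmr2 and mapped with minimap2 2.17-r941. The estimated counts deposited by the authors, 1 value per isoform and library, carry no normalization. Fractional values (more than 0.001 from a whole number) made up 39.5% of those above 0 in *fio1-1* and 39.3% in *fio1-5*, against 41.8% in Col-0. The deposited TPM values correct for the length of each isoform and add up to 1000000 in a library. The counting tool, annotation and genome build are not given in the sources used here. The columns name no platform and were read as the Nanopore libraries the methods describe, and the column named fio1_2 is *fio1-5* by the labels.

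Gene counts are sums over isoforms, rounded to whole numbers. Libraries were scaled by TMM (edgeR 4.0.16 in R 4.3.3) on genes with at least 20 counts over the 3 libraries, and log2 ratios were taken with 0.5 counts added. Intervals at 95% are exact Poisson (counts), exact conditional binomial (ratios, without the addition), Clopper-Pearson (shares) and Newcombe (share differences), from scipy 1.17.1. Shares were compared for genes with at least 20 counts in both libraries, and the cutoffs were 2-fold and 10 percentage points. The procedure was tested on simulated counts with counting error only, which is what the intervals assume. That test does not cover variation between libraries of a genotype. No test between genotypes was possible.

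The members and the gene lists were chosen with earlier results of these data known. Besides the members, *COI1*, *MYC2*, *NINJA* and *TPL* were always named, as were listed genes at least 2-fold from Col-0 in both mutants in 1 direction or at least 4-fold in 1 mutant, and the 3 genes of most similar pattern. *JAZ4*, *JAZ7*, *JAZ8*, *JAZ11*, *JAZ13*, *MYC3*, *MYC4*, *JAM1*, *AOC2*, *AOS*, *CYP94C1*, *VSP1*, *VSP2*, *TAT3*, *PDF1.2*, *PRP39A* and *PRP40A* fall outside this rule, and their values were known when they were picked. Alternatives tried were other scalings (total count, DESeq2 1.42.0 size factors, TPM with 0.5 added), 2 counts added, other count minimums and cutoffs, and isoform subsets. The methylation calls and the Illumina libraries were not analysed here.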

Additional observations from a re-analysis of the deposited data

How the results depend on the processing

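With 1 library per genotype no replicate could be left out. No paired analysis was possible because each genotype has a single library. Of 60 alternative log2 ratios of *JAZ12*, *JAZ6* and *JAZ2*, 58 stayed within the counting interval of the value reported and none of a 2-fold difference changed sign. The 2 that did not were those of *JAZ12* on the deposited TPM, -0.38 in *fio1-1* and -0.48 in *fio1-5*. On TPM the median of all tested genes shifted to -0.14 in *fio1-1* and -0.15 in *fio1-5*, and relative to it *JAZ12* stood at -0.24 in *fio1-1* and -0.33 in *fio1-5*. *JAZ2* in *fio1-5*, equal in counts to Col-0, took a log2 ratio of -0.02 with total-count scaling and -0.11 on TPM. On TPM its log2 ratio was -1.47 in *fio1-1* against Col-0 and 1.36 in *fio1-5* against *fio1-1*. All 24 share differences of *JAZ6* isoforms, and the 18 counts of *JAZ* isoforms that shifted (0 each), were the same as reported. Much of this agreement, for ratios and shares alike, was fixed in advance. A count minimum does not alter the values of a gene that passes it. *JAZ6* has only annotated isoforms, and the most counted isoform of *JAZ12* is its only one.

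Numbers past a cutoff moved with the count minimum and with the cutoff. Without a minimum, the 2-fold *JAZ* genes were 3 in *fio1-1* and 4 in *fio1-5*, each set against Col-0, and 3 in *fio1-5* set against *fio1-1*, of 7, and the median of the *JAZ* genes between the alleles became -0.0708. The pathway genes were then 19, 12 and 11 of 52, and all genes 6101, 5640 and 4939 of 23271, in the same order of comparisons. With at least 100 counts, which leaves out *JAZ2*, the *JAZ* genes were 0 of 2 in each comparison. The pathway genes were then 2, 1 and 0 of 24, and all genes 785, 609 and 350 of 10718. A 4-fold cutoff gave 1, 0 and 1 of 3 *JAZ* genes (*JAZ2*), 1, 0 and 1 of 39 pathway genes and 462, 310 and 240 of all 16426 genes. A 1.5-fold cutoff gave 10 of 39 pathway genes in *fio1-5* against Col-0, and 5048, 4555 and 3565 of all 16426 genes. On TPM, 1234 genes were 2-fold apart in *fio1-5* against Col-0 (636 higher and 598 lower, where the counts gave 1220 higher and 706 lower) and 801 in *fio1-5* against *fio1-1* (236 higher and 565 lower, where the counts gave 535 and 814).

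For isoform shares, the numbers of all isoforms in the same order were 305, 316 and 198 at 20 points, 1927, 2053 and 1754 at 5 points, 331, 325 and 223 with gene counts of at least 50, and 134, 105 and 78 with at least 100. The higher minimums left fewer genes and isoforms to test, but the share past the cutoff was lower as well, and the cause was not tested there or for the TPM. Depth limits what can be said of *JAZ1*, *JAZ3*, *JAZ5*, *JAZ9* and *JAZ10*, and of isoforms other than those of *JAZ6*.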
